A study of Mus musculus with 2 samples.

Results

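Imprinted genes are read mainly or only from the allele inherited from one parent, and the choice of allele is carried by DNA methylation at imprinting control regions. Several of them set the pace of growth before birth. Igf2 is a secreted growth factor of the fetus that is expressed from the paternal allele in mouse. Igf2r is the receptor that takes Igf2 up for breakdown in lysosomes and is expressed from the maternal allele. Grb10 is an adaptor protein that damps signalling from the insulin and IGF receptors, expressed from the maternal allele outside the nervous system. Cdkn1c (p57Kip2) inhibits cyclin-dependent kinases and is expressed from the maternal allele. Dlk1 is a membrane protein of the Notch ligand type that holds back adipocyte differentiation and is expressed from the paternal allele.

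The 5 genes were taken by symbol from the platform annotation, which gave 6 of the 25697 probes and 5 of the 16593 genes on the array. They were picked with the values of the present comparison known, so those values are given as a description and no test is attached to them. One sample came from cultured mouse embryonic fibroblasts of genotype Dnmt1-/- (p53-/-), which lack both Dnmt1, the enzyme that maintains DNA methylation at replication, and p53. It was compared with p53-/- embryonic fibroblasts, called the control here. Loss of p53 was thus common to both, as were the C57BL background and the serum-containing medium. RNA of each was put on Illumina bead arrays read in 1 colour, with 1 deposited array per genotype. No spread between replicates could therefore be had, and the labels do not say whether a line was 1 clone or a pool of embryos.

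The array labelled Dnmt1-/- gave a Dnmt1 signal of 439 units, against 1715 units in the control, which was 4.54-fold lower after normalization. Whether this probe lies inside the mutated stretch is unknown here. Uhrf1, the partner that brings Dnmt1 to replicating DNA, differed by 0.13 log2. Of 13 fibroblast markers on the array 10 were detected in both lines. The summed signal over all 13 was 29905 units in the Dnmt1-null line and 35560 units in the control. Among the 10, Prrx1 was 2.26-fold lower and S100a4 3.98-fold higher in the Dnmt1-null line, and 8 were within 2-fold. Without background correction, or with the mean of its probes, Prrx1 was less than 2-fold lower. Postn, Lum and Fap were detected in neither. All 5 endothelial markers were undetected on both arrays, yet their signals summed to 579 units in the Dnmt1-null line and 678 units in the control. Each sum given here includes such background. The median signal of undetected probes was 117 units on the Dnmt1-null array and 138 units on the control array. Ptprc, Adgre1 and Hba-a1 among 4 haematopoietic markers were also undetected on both arrays. The other, Cd34, was detected on both, with 246 units in the Dnmt1-null line and 206 units in the control (0.87 log2). The 4 summed to 600 units for the Dnmt1-null line and 613 units for the control. Of 6 muscle markers the Dnmt1-null array detected 3 and the control array 1, with summed signals of 2417 units for the Dnmt1-null line and 1037 units for the control, of which Acta1 gave 1694 units in the Dnmt1-null line and 312 units in the control. Of 6 epithelial markers the Dnmt1-null array detected 2 and the control array 0, with sums of 1159 units for the Dnmt1-null line and 914 units for the control, of which Krt14 gave 502 units in the Dnmt1-null line and 138 units, without detection, in the control. Of 6 chondrocyte markers the Dnmt1-null array detected 1 and the control array 2, with sums of 959 units for the Dnmt1-null line and 1965 units for the control, of which Col2a1 gave 151 units, without detection, in the Dnmt1-null line and 961 units in the control. Neural markers, 2 of 6 detected on each array, summed to 1682 units for the Dnmt1-null line and 1990 units for the control. Of the 2, Map2 was 3.03-fold lower in the Dnmt1-null line and Nes differed by 0.28 log2. With the mean of its probes Map2 was less than 2-fold lower. Trophoblast markers, 1 of 4 detected on each array, summed to 843 units for the Dnmt1-null line and 879 units for the control. The lines also differed in Y-linked transcripts. Eif2s3y had 117 units without detection in the Dnmt1-null line, against 1395 units in the control. Kdm5d had 115 units without detection in the Dnmt1-null line, against 279 units in the control. Uty, also Y-linked, had 148 units without detection in the Dnmt1-null line and 184 units in the control, at least 1.21-fold lower. Xist, the RNA of the inactive X chromosome, had 185 units in the Dnmt1-null line, against 141 units without detection in the control. Which of these differences between the lines came with the Dnmt1 genotype and which with the line cannot be told apart with 1 line per genotype, and their part in the results was not tested.

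Promoter sequence is shown for the members as a description, because the lines differ in the enzyme that maintains methylation of CpG sites. Whether promoter CpG content bears on the members' levels was not tested. In a RefSeq table of mouse promoters (GRCm38.p6), 4 of the 5 genes had an entry, with 8 transcription starts in all, and Cdkn1c had none. The array reads transcripts and did not measure methylation, and its probes do not tell the starts of a gene apart. The 250 bases before the start are printed 5′ to 3′, with each CpG in capitals, for Grb10 (chr11:12037421-12037670, minus strand), Igf2r (chr17:12769707-12769956, minus strand) and 2 starts of Igf2 (chr7:142658805-142659054 and chr7:142666817-142667066, both minus strand). These are the CpG-richest window of each of these genes and, for contrast, the CpG-poorest one of Igf2.
Grb10, outer start: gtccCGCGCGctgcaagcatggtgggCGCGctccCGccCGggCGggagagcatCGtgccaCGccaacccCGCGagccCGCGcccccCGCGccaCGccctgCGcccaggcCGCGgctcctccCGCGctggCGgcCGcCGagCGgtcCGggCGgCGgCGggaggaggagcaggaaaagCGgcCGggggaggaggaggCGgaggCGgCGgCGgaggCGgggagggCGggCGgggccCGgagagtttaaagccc
Igf2r: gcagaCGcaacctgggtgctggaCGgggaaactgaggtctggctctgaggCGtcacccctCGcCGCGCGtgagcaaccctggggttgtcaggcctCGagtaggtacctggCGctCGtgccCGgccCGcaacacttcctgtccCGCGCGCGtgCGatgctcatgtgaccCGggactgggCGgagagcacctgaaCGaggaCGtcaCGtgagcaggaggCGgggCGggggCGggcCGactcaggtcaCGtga
Igf2, CpG-rich start: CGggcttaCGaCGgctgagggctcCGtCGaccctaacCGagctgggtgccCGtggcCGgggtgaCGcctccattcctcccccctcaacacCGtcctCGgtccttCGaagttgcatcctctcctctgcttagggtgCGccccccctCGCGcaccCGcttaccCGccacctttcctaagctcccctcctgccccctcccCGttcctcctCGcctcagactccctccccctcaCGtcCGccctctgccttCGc
Igf2, outermost start: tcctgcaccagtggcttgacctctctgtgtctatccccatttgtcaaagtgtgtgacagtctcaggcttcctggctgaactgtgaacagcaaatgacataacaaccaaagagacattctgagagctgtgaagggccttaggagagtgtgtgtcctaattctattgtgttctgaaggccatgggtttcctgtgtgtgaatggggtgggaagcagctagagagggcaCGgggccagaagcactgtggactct

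The Grb10 window held 40 CpG sites and 81.2% G or C, and 1.31% of the 32851 windows in the table held as many or more. The Igf2r window held 27, a number reached by 8.56% of windows. The 4 starts of Igf2 differed widely, with 1, 10, 22 and 6 CpG sites from the outermost start inwards. The second start of Grb10 had 8 sites and the listed Dlk1 start 8, against a median of 6 over all windows. The letters GGGCGG, searched on both strands and overlapping a CpG wherever they occur, were found 5 times in the outer Grb10 window, 3 times in that of Igf2r and in 2 of the 4 of Igf2, and 32.7% of all windows held them at least once. The windows of these genes thus ran from CpG-rich to CpG-poor.

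Each of the 5 genes was lower in the Dnmt1-null line, by 3.71-fold for Igf2r to at least 214-fold for Grb10. A gene was counted as lower or higher when a probe detected on at least 1 array (detection p-value under 0.01) differed by 2-fold, or 1 log2, after background correction and quantile normalization. By this rule 5 of 5 were lower, where 3.71% of all 7727 detected genes were lower and 4.5% were higher. Since the genes were selected on this contrast, that count carries no further weight. The median difference of the 5 was -4.41 log2, against -0.03 log2 over all detected genes. Both paternally expressed genes (Igf2, Dlk1) and all 3 maternally expressed genes (Igf2r, Grb10, Cdkn1c) were lower. In RNA from whole cultures, fewer cells with a transcript and less of it per cell cannot be told apart.

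**Figure D1:**
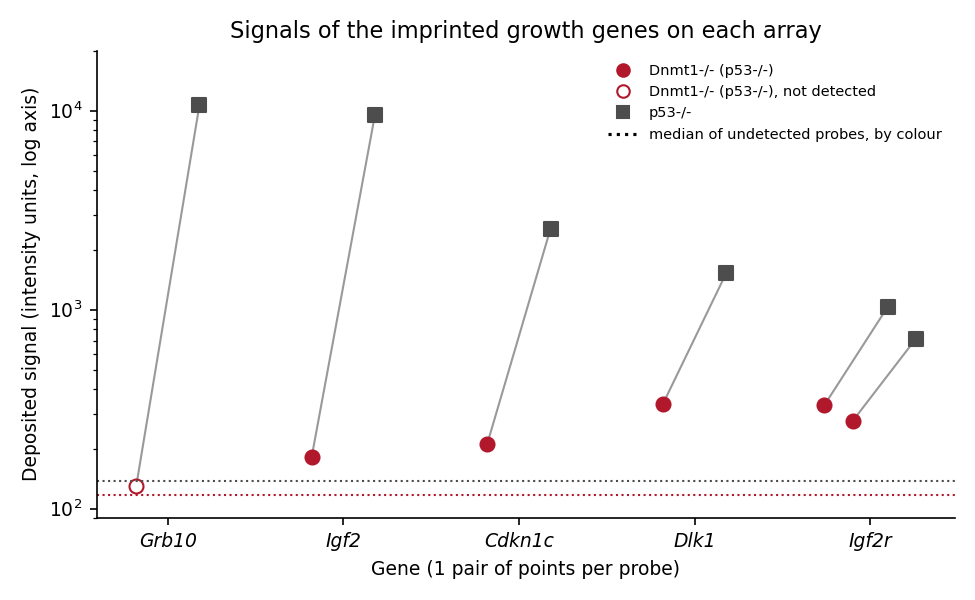
Deposited, non-normalized signal (log axis) of each of the 6 probes in the Dnmt1-/- (p53-/-) line (circles) and the p53-/- control (squares), with 1 array each and no error bars. All 6 lines run upwards from the Dnmt1-null point, and the open circle of Grb10 lies at the level of undetected probes (dotted lines, medians of 117 and 138 units).

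Igf2, the ligand, was measured by 1 probe (ILMN_2597769). Its signal was 183 units in the Dnmt1-null line, against 9533 units in the control. The remaining signal was just above background, with a detection p-value of 0.00125 in Dnmt1-null cells, against 0 in control cells. The p-values moved in steps that match 798 negative controls read 4 times, and this one equals a mean of 1 control being as bright. By brightness the probe was at rank 8947 of 25697 on the Dnmt1-null array and at rank 211 on the control array. The normalized level was 6.40 log2 in the Dnmt1-null line and 13.25 log2 in the control, a difference of -6.85 log2 or 115-fold. About 0.868% of the control level was left, and Igf2 had the second largest decrease of all 7727 detected genes.

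Igf2r, the receptor that removes Igf2, was the only one of the 5 with more than 1 probe. Probe ILMN_2931095 had a signal of 332 units in the Dnmt1-null line, against 1032 units in the control. Probe ILMN_2931096 had 275 units in the Dnmt1-null line, against 714 units in the control. Both probes were detected on both arrays and moved the same way, with differences of -1.89 and -1.66 log2, which lay 0.24 log2 apart. The first, the brighter one, gave a level of 7.90 log2 in the Dnmt1-null line and 9.80 log2 in the control. It was thus 3.71-fold lower with 26.9% left, at rank 82 among the decreases of detected genes.

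Grb10, the adaptor that restrains insulin and IGF receptors, had 1 probe (ILMN_2518412). It read 130 units in the Dnmt1-null line, against 10617 units in the control. In the Dnmt1-null line the probe was not detected (detection p-value 0.149) and its signal was 12.0 units over the median of undetected probes, while in the control the excess was 10480 units. The normalized levels were 5.05 log2 in the Dnmt1-null line and 13.40 log2 in the control. Set against the lowest level of a detected probe on the Dnmt1-null array (5.66 log2), the gene was at least 214-fold lower. This was the largest decrease among all detected genes.

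Cdkn1c, the cell cycle inhibitor, was read by ILMN_2708203 with 213 units in the Dnmt1-null line and 2554 units in the control. It was detected on both arrays. Its level was 6.84 log2 in the Dnmt1-null line, against 11.25 log2 in the control, which made it 21.3-fold lower with 4.70% left. By size of decrease it was at rank 6.

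Dlk1, the Notch-related membrane protein, had 1 probe (ILMN_1244618) with 336 units in the Dnmt1-null line and 1523 units in the control. Detection held on both arrays, as for Cdkn1c. The level of 7.93 log2 in the Dnmt1-null line against 10.44 log2 in the control gave a 5.70-fold lower value, with 17.5% left. Dlk1 was at rank 38 among the decreases of detected genes.

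The sizes of the 5 differences were spread widely. The bounded difference of Grb10 exceeded that of Igf2 by 0.90 log2, that of Igf2 exceeded that of Cdkn1c by 2.44 log2, that of Cdkn1c exceeded that of Dlk1 by 1.90 log2, and that of Dlk1 exceeded that of Igf2r by 0.62 log2. As a guide to scatter, detected genes of similar mean level had a robust SD of 0.32 to 0.34 log2 around their median difference, which describes genes on these arrays and not replicates. Genes with such folds were few. By the same measure 75 detected genes were at least 4-fold lower, the members giving 4 of them. At least 8-fold lower were 17 genes with 3 members, and at least 16-fold lower were 7 genes with 3 members. Since the members were selected on this contrast, their part in these counts carries no further weight.

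**Figure D2:**
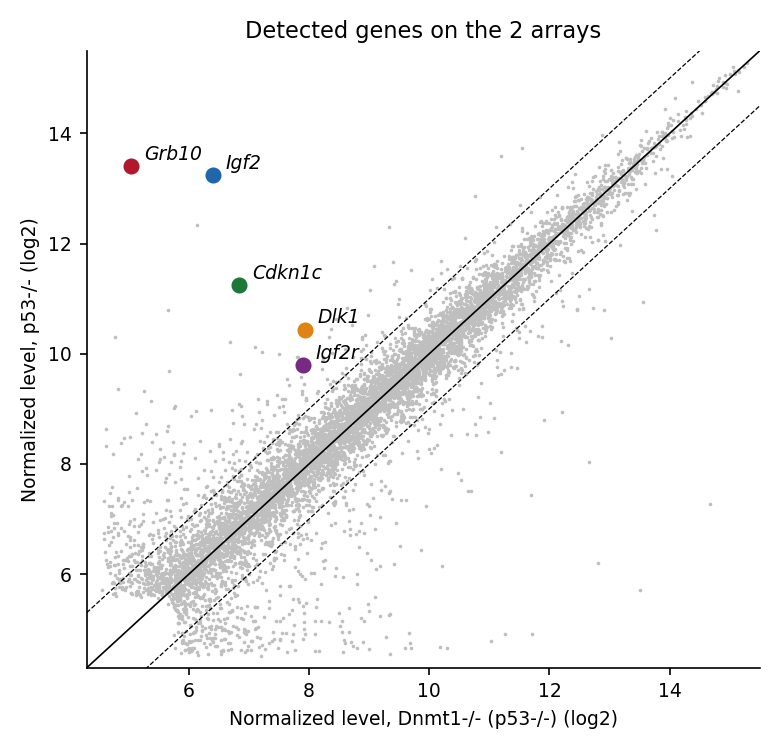
Normalized log2 levels of all 7727 detected genes in the Dnmt1-/- (p53-/-) line (x axis) and the p53-/- control (y axis). Solid and dashed lines mark equal levels and 2-fold differences, the 5 imprinted growth genes are coloured, and Grb10 is drawn at its measured level of 5.05 log2 although it was not detected in the Dnmt1-null line.

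The size of the largest differences changed with the background correction, and the remaining signals of Grb10 and Igf2 were close to background. The plain ratio of deposited signals, control over Dnmt1-null, was 82.0 for Grb10, 52.1 for Igf2, 12.0 for Cdkn1c, 4.53 for Dlk1 and 3.11 for the brighter Igf2r probe. In the authors' processed table the same ratios were 789, 143, 25.5, 6.40 and 4.24 in that order, of which the Grb10 one rests on a value without detection. The order of the 5 genes was the same in these values and in the normalized folds. Over all ways of processing tried, Igf2 was 50.3-fold to 143-fold lower, Cdkn1c 11.3-fold to 25.5-fold, Dlk1 4.23-fold to 6.40-fold and Igf2r 2.86-fold to 4.24-fold, while the lower limit for Grb10 ran from 67.9-fold to 312-fold.

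**Figure D3:**
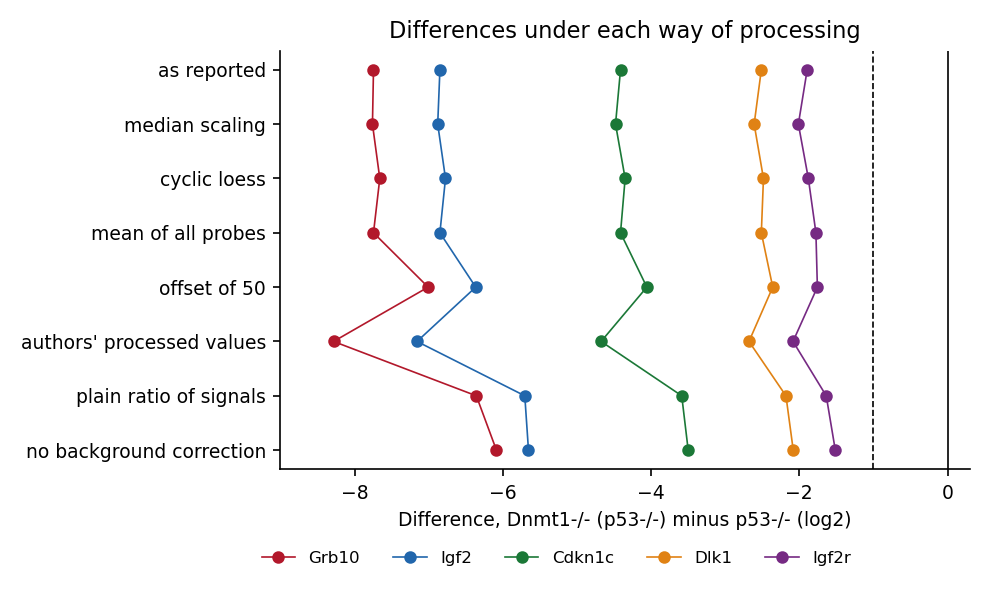
Difference of each gene (log2, Dnmt1-/- (p53-/-) minus p53-/-) as reported and under 7 other ways of processing, with 1 line per gene. The looser detection threshold is not drawn. All 5 genes lie left of the dashed 2-fold line in every row drawn, and the differences are smallest in size without background correction.

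Imprinted genes sit in clusters, often beside a non-coding RNA read from the opposite allele. The partners H19 and Igf2as (Igf2), Airn (Igf2r), Kcnq1ot1 (Cdkn1c) and Meg3, Rian and Mirg (Dlk1) had no probe under their names. These named transcripts were thus not measured here. Of 31 other genes of these clusters 20 were on the array and 5 were detected, all on both arrays. None of the 5 passed 2-fold, where 3.71% of all detected genes were lower and 4.5% higher. Their median difference was -0.12 log2, with a range from -0.58 (Fignl1) to 0.13 log2 (Cd81). The list left out Tnfrsf22 and Tnfrsf26, which lie between the listed genes Nap1l4 and Osbpl5. They were 2.77-fold and at least 3.04-fold higher, calls that were lost without background correction. Cd81, a membrane protein gene between Igf2 and Cdkn1c, had 8292 units in the Dnmt1-null line and 7126 units in the control. Nap1l4, a histone chaperone gene on the other side of Cdkn1c, had 3315 units in the Dnmt1-null line, against 3505 units in the control. Phlda2, an imprinted restrainer of placental growth, was detected in neither line, with 132 units in the Dnmt1-null line and 153 units in the control. Rtl1 and Dio3, which share the Dlk1 cluster, were also undetected on both arrays, as were Ins2, Ascl2, Kcnq1 and Slc22a18.

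The wider surroundings were described by the 10 measured genes on each side of each member in chromosome order, a window chosen after the data were seen. The windows of Igf2 and Cdkn1c on chromosome 7 overlap. Among 88 different neighbours 35 were detected, 0 were lower by 2-fold or more and 5 were higher, with a median of 0.06 log2. All genes on the array were lower in 3.71% and higher in 4.5% of detected cases. Higher neighbours were the muscle troponin genes Tnni2 (at least 2.54-fold) and Tnnt3 (at least 2.54-fold) near Igf2, and the decoy receptor gene Tnfrsf22 (2.77-fold) with its relative Tnfrsf26 (at least 3.04-fold) near Cdkn1c. The fifth was Rnu6 (2.87-fold) near Igf2r, a small nuclear RNA with many similar copies, so its value is uncertain. Without background correction 1 of the 5 higher calls was left, that of Rnu6, and with an offset of 50 both troponin genes were below 2-fold, which left 3. With the mean of all probes Tnfrsf22 was below 2-fold. Around Grb10 the nearest detected genes were Fignl1 at -0.58 log2 and the receptor gene Egfr at -0.48 log2, and around Dlk1 they were Wars at 0.10 log2 and Slc25a47 at -0.10 log2.

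**Figure D4:**
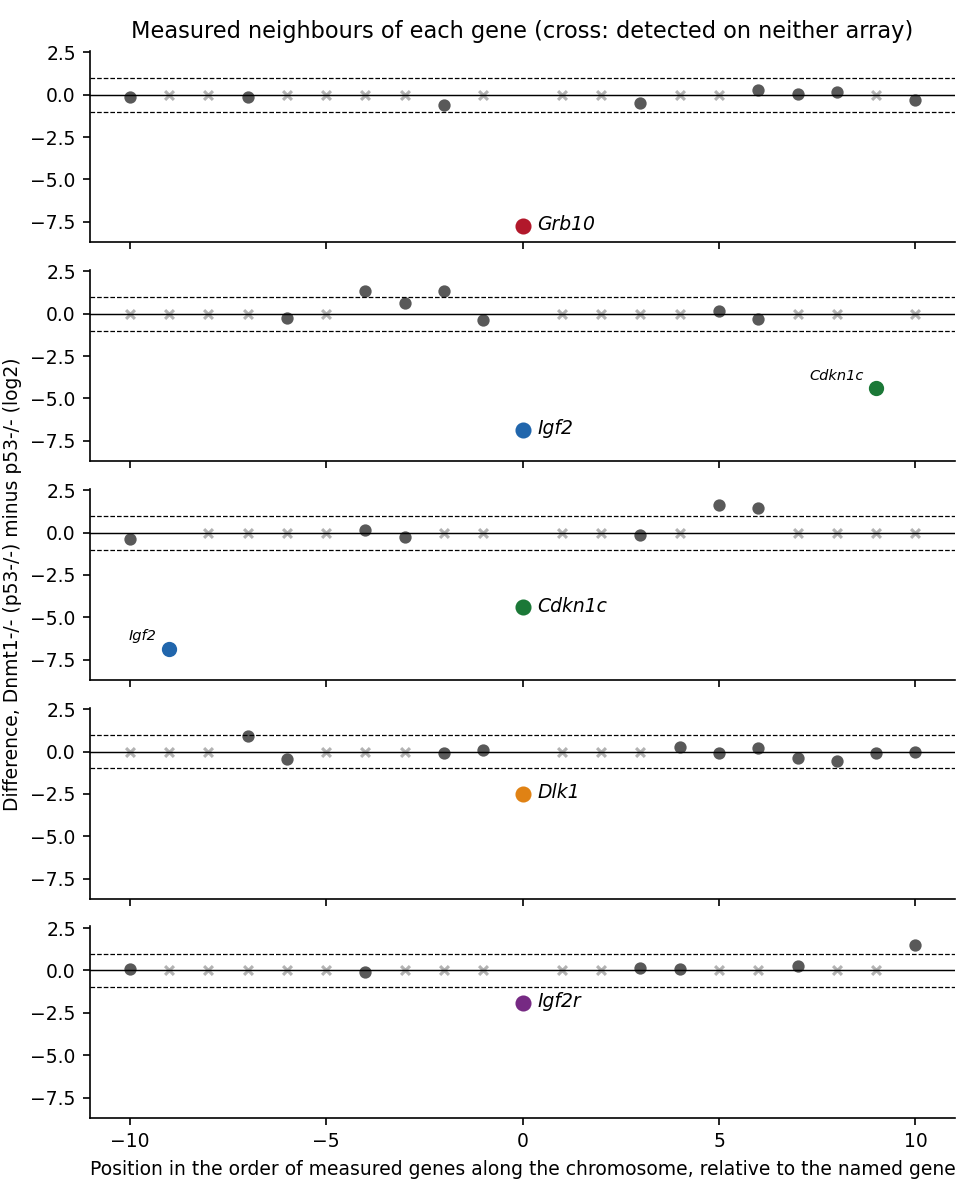
Difference (log2, Dnmt1-/- (p53-/-) minus p53-/-) of each gene and of the 10 measured genes on either side in chromosome order. Grey points are detected neighbours, crosses at 0 mark genes detected on neither array, which have no difference, and dashed lines mark 2-fold, below which only the 5 named genes lie.

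In the pathway in which Igf2, Igf2r and Grb10 act, genes lay on both sides of the control level. Of 45 other genes of IGF and insulin signalling 38 were on the array and 25 were detected, 2 of them lower, 3 higher and 20 within 2-fold (median -0.08 log2), where 3.71% of all detected genes were lower and 4.5% higher. The receptor Igf1r, through which Igf2 signals, was dim in both lines, with 168 units in the Dnmt1-null line and 180 units in the control. Its normalized difference was 0.25 log2, opposite in sign to the raw signals, and the median signal of undetected probes was 117 units on the Dnmt1-null array and 138 units on the control array. The second growth factor Igf1 had 268 units in the Dnmt1-null line, against 236 units in the control (0.64 log2). Insr, Irs1 and Akt1 were detected in neither line, whereas the adaptor Irs2 differed by -0.29 log2, Shc1 by -0.44 log2 and Pik3r1, a regulatory subunit of PI3 kinase, by -0.44 log2. The relatives of Grb10 were little seen, since Grb7 was undetected and Grb14 had 140 units without detection in the Dnmt1-null line, against 197 units in the control. Igf2bp1 and Igf2bp3, RNA-binding proteins named after Igf2 mRNA, differed by -0.67 and -0.19 log2.

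The genes past 2-fold were binding proteins that hold IGFs outside the cell, and a secreted protein that acts on their release. Igfbp5 had 733 units in the Dnmt1-null line, against 5112 units in the control, and was 7.84-fold lower. Igfbp2 had 214 units in the Dnmt1-null line, against 931 units in the control, and was 6.80-fold lower (-2.77 log2, or -1.99 log2 without background correction). Igfbp4 (3.14-fold) and Igfbp6 (2.94-fold) were higher in the Dnmt1-null line. Stc2, an inhibitor of the protease that cleaves Igfbp4, was 2.20-fold higher, a call lost with an offset of 50 or with no background correction.

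Among inhibitors of cyclin-dependent kinases and their partners, the setting in which Cdkn1c acts, 21 of 23 were on the array and 18 were detected. Of these 1 was lower, 0 higher and 17 within 2-fold (median -0.03 log2), where 3.71% of all detected genes were lower and 4.5% higher. The sister inhibitor Cdkn1a, a p53 target, had 474 units in the Dnmt1-null line and 349 units in the control (0.82 log2), and Cdkn1b was detected in neither line. Cdkn2b was 2.02-fold lower, just past the limit, and within 2-fold under 4 of 7 other settings. Its neighbour Cdkn2a differed by -0.97 log2. The kinase Cdk2 differed by -0.47 log2 and the cyclins Ccnd1 and Ccnd2 by 0.25 and 0.28 log2.

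For Dlk1, Notch pathway and adipocyte genes were looked up. Of 24 listed 22 were on the array and 9 were detected. Among these 0 were lower, 1 higher and 8 within 2-fold (median -0.38 log2), where 3.71% of all detected genes were lower and 4.5% higher. Pparg, the master regulator of fat cell formation, was the higher one, with 583 units in the Dnmt1-null line and 283 units in the control, or 3.20-fold. With the mean of its 3 probes the difference was 0.64 log2, below the limit. Cebpa, Fabp4, Adipoq and Plin1, genes of mature fat cells, were detected in neither line, while the lipase gene Lpl differed by -0.76 log2 and Cebpb, an early adipocyte factor, by 0.24 log2. Notch1 differed by -0.81 log2 and the Notch target Hes1 by -0.38 log2.

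Igf2r also carries enzymes tagged with mannose 6-phosphate to lysosomes, and 13 of 14 genes of that route on the array were detected. Of these 1 was lower, 1 higher and 11 within 2-fold (median 0.34 log2), where 3.71% of all detected genes were lower and 4.5% higher. M6pr, the other receptor for the same tag, had 3814 units in the Dnmt1-null line, against 2670 units in the control (0.50 log2). Sort1, another sorting receptor, was 2.61-fold lower, and below 2-fold with the mean of its 4 probes. Ctsk, a lysosomal protease that digests collagen, was 16.7-fold higher (4.07 log2), with a control signal of 194 units near background, and its difference was 2.83 log2 without background correction. In the same list Ctsb and Lamp1 differed by 0.45 and 0.41 log2.

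Genes listed as imprinted outside the 5 went both ways, and whether they were imprinted in these cells was not measured. Of 49 others listed 39 were on the array and 21 were detected. Of these 4 were lower, 4 higher and 13 within 2-fold (median 0.03 log2), against 3.71% lower and 4.5% higher among all detected genes. Lower were Nnat (at least 6.63-fold), a brain membrane protein gene, Dcn (3.58-fold), the proteoglycan decorin, Mest (3.48-fold), a hydrolase-like gene linked to fetal growth, and Ppp1r9a (at least 2.98-fold), an actin-binding protein gene. Higher were the paraoxonase gene Pon3 (at least 4.06-fold), the signal peptide peptidase gene H13 (2.14-fold), the flippase gene Atp10a (2.09-fold) and Ndn (2.02-fold), the gene of necdin, and each of these 4 lost the 2-fold call in at least 1 of 7 other settings. Among the lower genes Ppp1r9a lost it without background correction (-0.70 log2), and Nnat then differed by -1.47 log2, or by -1.78 log2 with the mean of its probes. Snrpn and Gnas differed by 0.34 and 0.03 log2, and Plagl1 and Peg3 were detected in neither line.

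**Figure D5:**
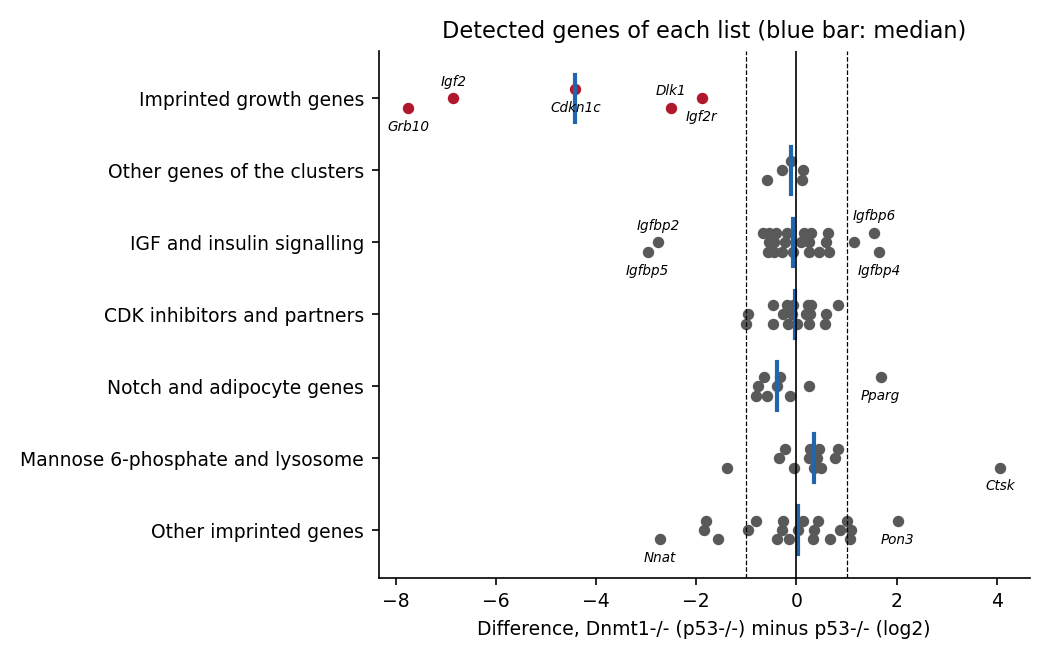
Difference (log2, Dnmt1-/- (p53-/-) minus p53-/-) of every detected gene in 7 lists, with a blue bar at the list's median and dashed lines at 2-fold. The imprinted growth genes, chosen on these values, have a median of -4.41 log2, while the other 6 medians lie between -0.38 and 0.34 log2.

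The search for genes with a pair of levels near that of a member left the members themselves out. It ranked the other detected genes by the Euclidean distance of the normalized log2 levels over the 2 arrays, and the nearest 2 are given. For Igf2 and for Grb10 alike these were Mdk, a heparin-binding growth factor gene (0.94 and 1.52 log2 away), and Mfap2, a microfibril gene (2.56 and 2.67 log2 away). For Cdkn1c they were the transcription factor gene Zic1 (1.06 log2) and Slit2 (1.16 log2), which codes for a secreted guidance protein. For Dlk1 they were Lrrc15 (0.43 log2) and the glutamate transporter gene Slc1a3 (0.45 log2), and for Igf2r the homeobox gene Irx3 (0.16 log2) and Tnfrsf11b (0.18 log2), the gene of osteoprotegerin.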

How the data were processed

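The deposited probe intensity values were linear and, per the file headers, non-normalized, each beside a deposited detection p-value. Which scanner software was used is not given in the sources used here. Another deposited table gave the authors' processed intensity values, which were linear, in nearly the same order as the signals, scaled to a shared mean of 507, with medians of 13.8 (Dnmt1-null) and 14.2 (control). Its background method stayed unknown, and it served as an alternative.

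With limma 3.58.1 in R 4.3.3, neqc took background (normexp) from detection p-values, with an offset of 16, then quantile-normalized and took log2. Python 3.11.15 did the rest. The steps were tested on simulated data, in which the steepest decreases came out smaller than simulated. Of 25697 probes 23978 had 1 gene symbol, 0 had several and 1719 had none, and 23962 matched a RefSeq table (GRCm38.p6), from which chromosome order was taken. A gene with several probes was represented by its brightest on average. An array that did not detect a probe was taken at the higher of its own value and the lowest detected level there (5.66 log2 Dnmt1-null, 5.57 log2 control), so such folds are lower limits. On the Dnmt1-null array 10048 probes were detected and on the control array 10302. With 1 array per group no test was made, and the number of arrays limits every value. Scatter was a robust SD over the 500 detected genes nearest in level.

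Members and lists were chosen with earlier results of these data known. Named were all members and listed genes past 2-fold (or, where fewer than 2 passed, up to 2 bright ones). For each member the 2 non-member genes nearest in level were also named. Further genes in the text were named after their values were seen. Alternatives changed background, offset, normalization, probe choice, detection threshold and source of values.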

Additional observations from a re-analysis of the deposited data

How the results depend on the processing

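All 5 members stayed lower by more than 2-fold under all settings tried, and no difference changed sign. For the differences, a shift larger than the scatter of genes of similar level (0.32 to 0.34 log2) was counted as a move. Without background correction Igf2 differed by -5.65 log2, Igf2r by -1.51, Grb10 by -6.09, Cdkn1c by -3.50 and Dlk1 by -2.08 log2. With an offset of 50 in place of 16, Igf2 differed by -6.37, Grb10 by -7.01 and Cdkn1c by -4.06 log2. The plain ratio of deposited signals, added after seeing the data, gave -5.70 for Igf2, -6.36 for Grb10 and -3.59 log2 for Cdkn1c. With the authors' processed values Grb10 differed by -8.28 log2. Over all genes, 181 were higher and 132 lower by 2-fold without background correction, against 348 and 287 as reported, and 449 were lower with the authors' values. Among cyclin-dependent kinase genes the count of lower ones was 0 to 2 over the 7 settings, and higher neighbours numbered 1 to 5. Notch and adipocyte genes gave 0 or 1 lower and 0 or 1 higher, and lysosomal genes 0 or 1 lower. Of the other imprinted genes 1 to 5 were higher and 3 to 6 lower, and the list's median turned to -0.07 log2 under median scaling and with the authors' values. That of the IGF list turned to 0.01 log2, and that of the cluster genes to 0.01 log2, with the mean of all probes, and that of the cyclin-dependent kinase list turned to 0.01 log2 under cyclic loess and at a detection p-value under 0.05, and to 0.02 log2 with the mean of all probes. No paired analysis was possible because each genotype had 1 array. The lack of replicates and, for Grb10 and Igf2, signals near background in the Dnmt1-null line limit the sizes given.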
